A study of Mus musculus with 48 samples.

Results

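The livers of mice fasted for 24 hr were compared with the livers of mice fed ad libitum (AL). The members were the 3 arrays titled for fasted liver and the 3 titled for AL liver, 6 of the 48 arrays of the series. The study also profiled muscle and adipose tissue, caloric restriction and FGF21 transgenic mice, on Illumina MouseRef-8 arrays, which read each transcript as the brightness of beads that carry a matching probe. All mice of both groups were wild-type C57Bl/6J, labelled as 3 months old, and the methods give them as male. The methods state that a replicate pools labelled RNA from 1 to 3 mice, so the arrays, not the mice, are the replicates. Fed and fasted mice were killed in the same afternoon window. The 6 arrays were on 1 chip, with the AL samples in its first 3 positions and the fasted samples in the next 3, so position and feeding cannot be told apart.

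Fasting moves the liver from storing fuel to releasing it. Insulin falls while glucagon, glucocorticoids and fatty acids rise, and through nuclear receptors and kinases they turn on glucose production, fatty acid oxidation and ketone production and turn off lipid synthesis and growth. The liver also houses resident macrophages (Kupffer cells) and sinusoidal endothelial cells, whose transcripts are measured together with those of hepatocytes in whole tissue.

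The 6 arrays were of like quality. Median signals lay between 249.64 and 264.84, and 41.98 to 44.30% of probes were detected. Arrays of 1 group correlated at 0.9839 or more, and arrays of different groups at 0.9568 to 0.9669. The tissue label was checked with markers of each cell type. On every array 11 of 12 hepatocyte markers were detected, and 0 of 11 skeletal muscle markers. Between 2 and 4 of 9 adipocyte markers were detected, but Adipoq, which defines fat cells, was detected on 0 arrays.

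Of 8902 genes tested, 488 (5.48%) were called changed, meaning that the adjusted p was below 0.10 and the levels differed more than 2-fold. A rise was called for 199 genes (2.24% of those tested) and a fall for 289 (3.25%). These shares are the background for every gene list below. In 3054 of the genes tested the fasted arrays all lay on 1 side of the AL arrays, as in 480 of the 488 called. Such separation thus adds little to a call. The median log2 fold change over all genes was -0.001. Changes over 8-fold were seen in 13 genes that rose and 23 that fell. Values below are log2 signals, on which 1 unit is a 2-fold difference, and adjusted p-values are from limma over all genes tested.

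Several of the genes with the largest changes lie outside lipid and sterol metabolism. Hsd3b5, a steroid reductase of male mouse liver, read 13.60, 13.56 and 13.71 on the AL arrays and 6.76, 7.34 and 8.06 on the fasted arrays, a 75.3-fold fall (log2 -6.23, SE 0.45, adjusted p = 1.4e-06). Cyp2c70, which makes the muricholic acids of mouse bile, fell from 15.28, 15.41 and 15.26 to 11.08, 10.96 and 11.24 (log2 -4.22, SE 0.14, adjusted p = 9.1e-10). Both are among the 12 largest falls. The 12 largest falls and rises were drawn only from called genes whose groups did not overlap, so their separation is not a result. Treh, which splits the sugar trehalose and was picked after its values had been seen, rose from 7.02, 6.89 and 6.29 to 9.96, 9.61 and 9.86 (log2 3.08, SE 0.21, adjusted p = 1.0e-06). Kiss1, which encodes the hormone kisspeptin, read 5.90, 5.64 and 6.09 on the AL arrays, 1 of which detected it, and 9.41, 8.91 and 9.56 on the fasted arrays (log2 3.42, SE 0.33, adjusted p = 1.9e-05). Eif4ebp3, a repressor of cap-dependent translation, rose 17.2-fold (log2 4.11, SE 0.37, adjusted p = 1.1e-05), and its lowest fasted array, at 10.73, was above its highest AL array, at 7.39. An "at least" fold is given where a group was undetected, and sets its arrays at the lowest signal of detected probes. Chrna4, a subunit of the nicotinic acetylcholine receptor, read 8.89, 10.35 and 9.13 in AL liver and was not detected on any fasted array, at least 11-fold lower (adjusted p = 3.1e-04). Cyp17a1, a steroid hydroxylase, rose 10.5-fold (adjusted p = 8.8e-04), and the lipid droplet gene Plin4, detected on 2 AL arrays, rose by 3.59 on the log2 scale (adjusted p = 3.4e-06).

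The lists of transcription factors, transporters, cell cycle, immune, signaling, stress and synthesis genes differed in how many members were called. Among 216 immune genes, 33 (15.28%) fell and 1 (0.46%) rose, against the background of 3.25% and 2.24%. Among 471 stress genes, 18 (3.82%) rose and 9 (1.91%) fell. Transporters had 11 up and 15 down of 194, cell cycle genes 6 up and 8 down of 99, transcription factors 7 up and 8 down of 165, signaling genes 9 up and 11 down of 230, and growth and synthesis genes 7 up and 13 down of 251. The immune genes also had the lowest median log2 fold change of these 7 classes, -0.369, and those of the other classes lay between -0.132 and 0.069.

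**Figure D1:**
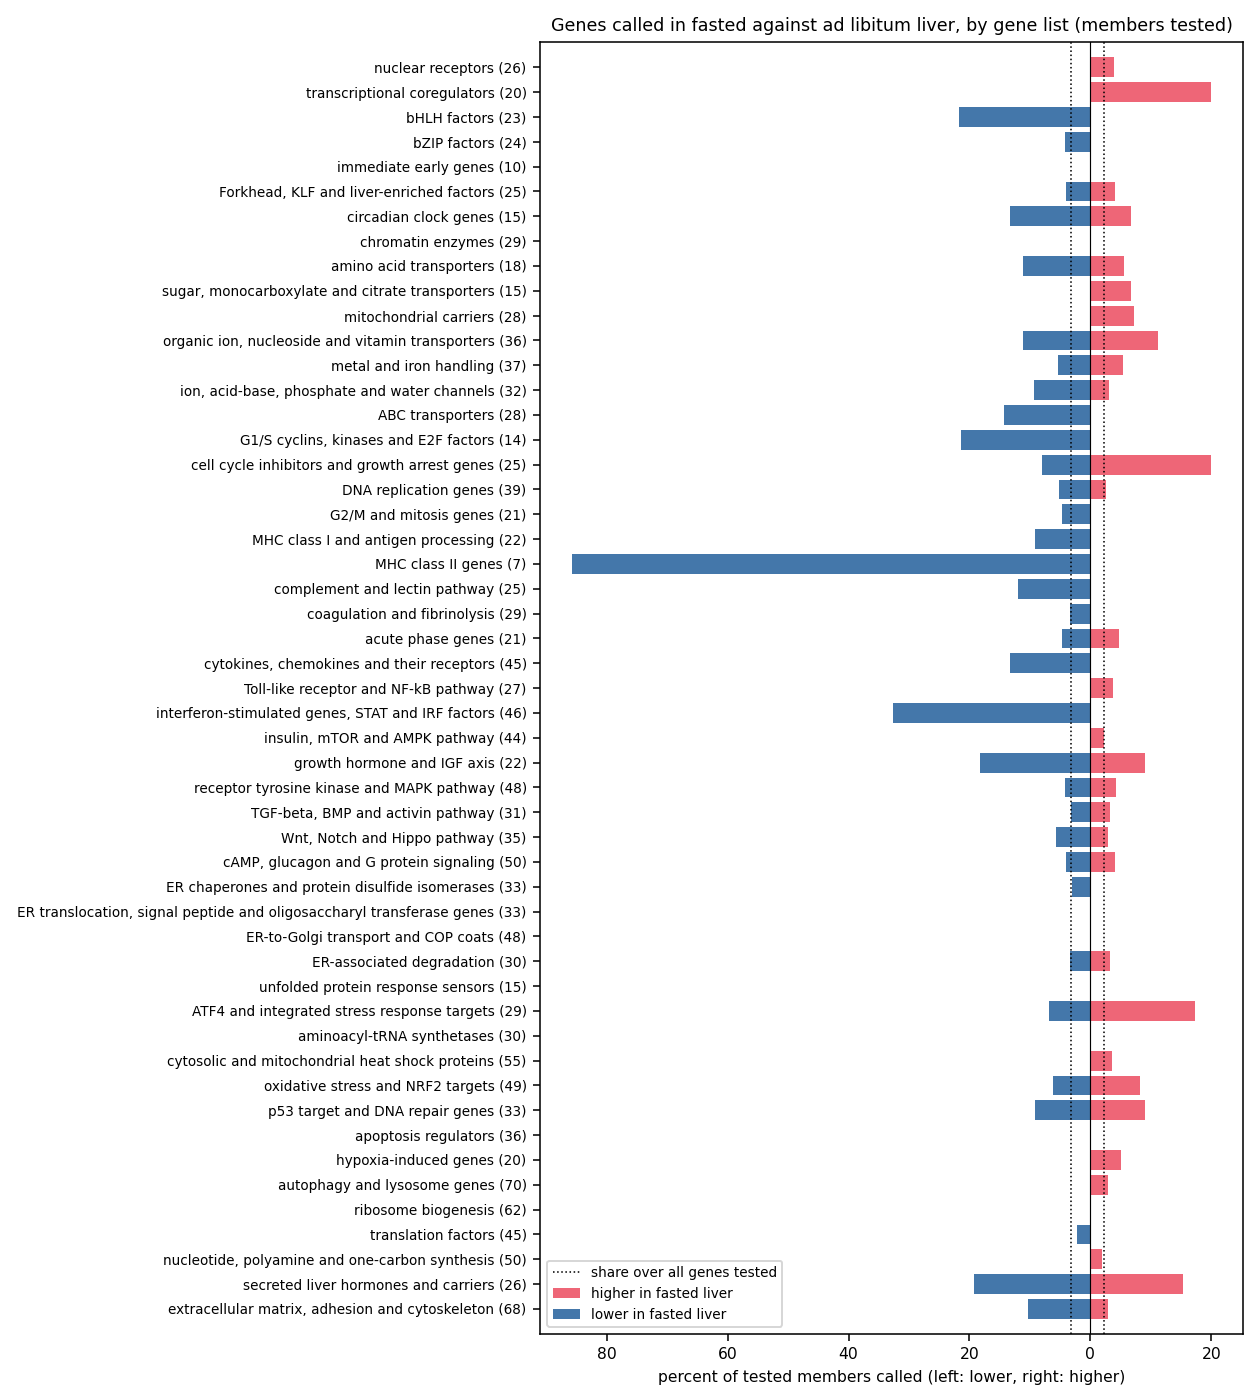
Percent of the tested members of each gene list that were called lower (bars to the left) or higher (bars to the right) in the 3 fasted than in the 3 ad libitum liver arrays, with the number tested in brackets. Dotted lines mark the shares over all 8902 genes, 3.25% lower and 2.24% higher; MHC class II genes (85.71% lower) and interferon-stimulated genes (32.61% lower) extend farthest to the left.

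The genes of antigen presentation by MHC class II fell together. These genes encode the surface molecules that show peptides to helper T cells, and their chaperones. Of 7 tested, 6 fell and 0 rose, with a median log2 fold change of -1.71. H2-Ab1, which encodes a class II beta chain, read 11.47, 11.06 and 11.37 on the AL arrays and 9.83, 9.07 and 9.25 on the fasted arrays (log2 -1.92, SE 0.20, adjusted p = 3.8e-05). H2-Aa, the alpha chain that pairs with it, fell from 10.45, 10.14 and 10.55 to 9.34, 8.15 and 8.37 (log2 -1.76, adjusted p = 6.9e-04). Cd74, the invariant chain that guards the groove, fell from 11.30, 11.06 and 11.40 to 9.97, 9.27 and 9.49 (log2 -1.68, adjusted p = 1.2e-04). The groups did not overlap in any of these genes, and among the fasted arrays replicate 1 was the highest in each. H2-Eb1 (log2 -1.83), H2-DMa (-1.71) and H2-DMb1 (-1.36), the last 2 of which encode the peptide-loading chaperone, also fell. Genes of the class I pathway moved less: of 22 tested, 2 fell and 0 rose, the immunoproteasome subunits Psmb10 (log2 -1.41, adjusted p = 4.6e-04) and Psmb9 (log2 -1.14, adjusted p = 0.0033), while H2-K1 was at -0.17 and the light chain B2m at -0.22.

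Interferon-stimulated genes were the other immune list with many calls. Interferons switch these genes on through STAT and IRF factors, and their products block viruses and other microbes inside cells. Of 46 tested, 15 fell and 0 rose, 42 had a negative fold change, and the median was -0.59. The median level of the list was 8.86, 8.61 and 8.65 on the AL arrays and between 7.94 and 8.0 on the fasted arrays, so the groups stood apart. Gbp2b, a guanylate-binding protein, fell from 8.31, 8.03 and 8.27 to 5.82, 5.51 and 6.30 (log2 -2.32, SE 0.19, adjusted p = 4.5e-06), and only 1 fasted array detected it. Gbp3, of the same family, fell from 9.48, 9.55 and 9.26 to 7.98, 7.32 and 7.90 (log2 -1.70, adjusted p = 0.0012). Irf7, a factor that amplifies interferon responses, fell from 7.95, 8.11 and 8.37 to 7.18, 6.89 and 6.92 (log2 -1.15, adjusted p = 0.0062). Bst2, also called tetherin, which holds budding viruses at the cell surface, fell from 10.04, 10.14 and 9.82 to 9.23, 8.95 and 8.67 (log2 -1.04, adjusted p = 0.0094). Isg15, a ubiquitin-like modifier, fell from 6.95, 7.36 and 7.62 to 6.43, 5.74 and 6.25 (log2 -1.17, adjusted p = 0.043). Bst2 lost its call without AL replicate 2 (-0.97) or fasted replicate 3 (-0.90), and Isg15 without AL replicate 2 (-1.15) or 3 (-1.01) or fasted replicate 2 (-0.98). Ifi47 (log2 -1.61), Ifit2 (-1.51), Irf5 (-1.50), Ifitm3 (-1.36), Oasl2 (-1.25, with a second probe at -0.05) and Igtp (-1.22) were among the others that fell. Bst2, Isg15, Irf5, Ifitm3, Oasl2, Igtp and, among the class II genes, H2-DMb1 were picked after their values had been seen. The factor Stat3 was at -0.14 and was not called.

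The number of immune calls depended on the processing more than their direction did. MHC class II calls numbered 4 without background correction and with all 16 liver arrays as labelled, and 2 on the deposited log2 values. Interferon-stimulated calls numbered 5, 8 and 1 under the same settings.

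The promoters of the genes in these 2 lists were searched for the letters of a known regulatory element each. Interferon-stimulated genes are bound by IRF and STAT complexes at the interferon-stimulated response element, searched as GAAANNGAAA, where N is any base. MHC class II promoters carry a Y box, which holds the letters CCAAT. Both strands were searched, matches could overlap, and RefSeq windows of 300 bases on GRCm38.p6 (250 before and 50 after the transcript start) were used. The response element was in 3.44% of all 32851 windows. Of the tested genes with a window, 3.85% held it. Shares of genes count a match in any window of the gene, so they are not the same measure as shares of windows. Of the 15 interferon-stimulated genes that fell all have a window, and 8 hold it: Bst2, Gbp2, Gbp2b, Gbp3, Ifitm3, Igtp, Irgm2 and Isg15. Gbp2 lost its call without AL replicate 3 or fasted replicate 2 or 3 (-0.99 to -0.90) and Irgm2 without AL replicate 2 or 3 or fasted replicate 2 or 3 (-0.99 to -0.95). Of the 31 that were not called 24 have a window and 12 hold it, 53.3 and 50% of those with a window. CCAAT was in 37.4% of all windows, and 43.7% of the tested genes with a window held it. It was in 0 of 1 of class II genes not called, and in all 4 fallen class II genes that have a window (H2-Aa, H2-DMa, H2-DMb1 and H2-Eb1). Below, the matches are in capitals, the first 4 sequences being of interferon-stimulated genes and the last 2 of class II genes.
Gbp3, chr3:142559794-142560093, plus strand: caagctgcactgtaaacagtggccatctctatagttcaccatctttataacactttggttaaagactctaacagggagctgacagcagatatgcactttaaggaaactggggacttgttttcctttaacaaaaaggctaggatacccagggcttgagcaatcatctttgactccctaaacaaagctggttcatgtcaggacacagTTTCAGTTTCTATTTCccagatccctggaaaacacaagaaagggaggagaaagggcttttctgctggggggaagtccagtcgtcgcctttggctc
Gbp2b, chr3:142594597-142594896, plus strand: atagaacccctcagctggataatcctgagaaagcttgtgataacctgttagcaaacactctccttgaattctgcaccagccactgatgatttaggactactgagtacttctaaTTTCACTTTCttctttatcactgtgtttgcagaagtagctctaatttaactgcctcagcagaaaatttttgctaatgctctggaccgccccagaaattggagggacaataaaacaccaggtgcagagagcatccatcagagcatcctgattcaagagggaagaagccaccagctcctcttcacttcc
Isg15, chr4:156200769-156201068, minus strand: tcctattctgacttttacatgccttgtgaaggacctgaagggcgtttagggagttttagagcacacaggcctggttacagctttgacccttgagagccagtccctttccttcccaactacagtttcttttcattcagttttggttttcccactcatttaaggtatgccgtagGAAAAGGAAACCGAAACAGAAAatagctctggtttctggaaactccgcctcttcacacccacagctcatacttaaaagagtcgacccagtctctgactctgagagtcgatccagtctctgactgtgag
Bst2, chr8:71537423-71537722, minus strand: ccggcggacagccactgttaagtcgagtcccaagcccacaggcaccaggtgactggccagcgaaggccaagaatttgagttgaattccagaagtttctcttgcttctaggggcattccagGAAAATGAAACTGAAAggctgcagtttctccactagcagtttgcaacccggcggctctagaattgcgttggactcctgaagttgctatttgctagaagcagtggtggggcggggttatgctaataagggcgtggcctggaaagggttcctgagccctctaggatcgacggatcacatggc
H2-Aa, chr17:34287774-34288073, minus strand: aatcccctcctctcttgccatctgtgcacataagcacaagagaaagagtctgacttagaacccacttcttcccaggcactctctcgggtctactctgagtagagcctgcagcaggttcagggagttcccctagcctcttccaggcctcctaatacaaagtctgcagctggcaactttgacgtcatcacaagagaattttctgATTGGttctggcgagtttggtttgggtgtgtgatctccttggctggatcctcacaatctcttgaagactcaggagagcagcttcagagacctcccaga
H2-Eb1, chr17:34305617-34305916, plus strand: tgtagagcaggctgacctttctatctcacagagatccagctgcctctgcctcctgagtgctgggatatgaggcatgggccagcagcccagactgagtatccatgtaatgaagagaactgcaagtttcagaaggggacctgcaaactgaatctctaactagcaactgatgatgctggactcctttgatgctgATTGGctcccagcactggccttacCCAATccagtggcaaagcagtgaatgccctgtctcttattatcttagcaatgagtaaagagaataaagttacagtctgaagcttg
Gbp3 and Bst2 have 2 overlapping matches each and Isg15 has 3, all within 1 short run, and in Gbp3 and Gbp2b the match reads on the reverse strand. The promoter of H2-Aa holds 1 CCAAT match on the reverse strand, and that of H2-Eb1 holds 1 on each strand.

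Some markers of macrophages fell on the same arrays. Kupffer cells carry much of the MHC class II of the liver. Of 17 macrophage markers on the array, 12 to 15 were detected, and of 15 tested, 4 fell and 0 rose, with a median log2 fold change of -0.856. The fold change was negative for 14 and positive for 1, and at any fold 12 passed the adjusted p, all of them lower. Folr2, a folate receptor of resident macrophages, read 7.72, 7.22 and 7.82 in AL liver and 6.06, 5.71 and 5.81 in fasted liver (log2 -1.73, adjusted p = 7.0e-04). The other 3 that fell were C1qa (log2 -1.07), Clec4f (-1.01) and Adgre1 (-1.03). The calls of these 3 were lost in turn: C1qa without AL replicate 3 or fasted replicate 2 or 3 (-0.92 to -0.82), and Clec4f and Adgre1 without AL replicate 1 or 3 or fasted replicate 2 or 3 (-0.99 to -0.67, except Adgre1 without fasted replicate 3, at -1.0). The list had 2, 9 and 1 calls without AL replicates 1, 2 and 3, and 10, 1 and 1 without fasted replicates 1, 2 and 3. The 1 with a positive fold change was Cd163 (0.44, not called), and Cd5l was detected on no array of either group. The median level over the markers on the array ran from 9.24 to 9.76 in AL liver and from 7.93 to 9.38 in fasted liver, so the ranges overlap. That level is read from the middle marker, which was Cd163 or Adgre1 on the AL arrays and Adgre1 on the fasted arrays. Over the tested markers the median ran from 9.25 to 9.88 in AL liver and from 8.88 to 9.52 in fasted liver, ranges that also overlap. As in any whole tissue, fewer cells of a type and less RNA per cell cannot be told apart, and the part of the macrophage and blood cell markers in the immune calls was not tested. Markers of blood cells had the same sign: 7 of 8 of T, NK and B cells were negative with 1 call (Cd52, log2 -1.05), 3 of 3 of neutrophils with 1 call (S100a8, -1.34) and 4 of 4 of erythroid cells with 1 call (Alas2, -1.29). Cd52 lost its call without AL replicate 1 (-0.93) or fasted replicate 2 (-0.80), and S100a8 without AL replicate 1 (-1.16) or fasted replicate 2 (-1.29) or 3 (-1.07). The median level of the tested T, NK and B cell markers was 5.90 to 6.46 in AL and 5.94 to 6.13 in fasted liver. That of the tested neutrophil markers was 6.12 to 6.28 in AL and 5.21 to 6.29 in fasted liver. In each of these lists the groups overlap near the lowest signal of detected probes, which was 5.82 to 6.05 depending on the array. The median level of the tested erythroid markers was 9.19 to 9.69 in AL and 8.28 to 8.46 in fasted liver. Of 16 endothelial markers 1 was called: Lyve1, a hyaluronan receptor of sinusoidal endothelium, rose from 8.06, 8.06 and 8.45 to 10.47, 9.16 and 10.23 (log2 1.76, adjusted p = 0.0023).

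Other immune genes included cytokines, complement and acute phase proteins. Of 45 cytokines, chemokines and receptors tested, 6 fell and 0 rose. Cxcl9, a chemokine that draws T cells and is induced by interferon-gamma, fell from 10.06, 10.02 and 10.26 to between 7.34 and 8.0 (log2 -2.52, SE 0.28, adjusted p = 6.5e-05). Il15, which sustains natural killer cells, fell from 7.84, 7.81 and 8.17 to 6.54, 5.98 and 6.27 (log2 -1.67, adjusted p = 1.2e-04), though its other 2 probes were at -0.92 and -0.09, and Il18 fell from 10.10, 10.34 and 10.11 to 8.91, 8.81 and 8.83 (log2 -1.33, adjusted p = 7.4e-05). All 3 fasted arrays were below all 3 AL arrays in each of these genes. Of 25 complement and lectin pathway genes 3 fell: C1qa, already counted among the macrophage markers, the lectin Mbl2 (log2 -1.28, adjusted p = 4.9e-04) and C8a (-1.33). C8a lost its call without AL replicate 1 or 3 or fasted replicate 1 (-1.27 to -1.10). The fold change was negative for 24 of the 25, with a median of -0.457, and at any fold 12 passed the adjusted p, all lower. Of 29 coagulation genes 1 fell, F11 (log2 -1.42, adjusted p = 6.7e-05). The only immune gene that rose was Lbp, which binds bacterial lipopolysaccharide, from 9.68, 9.63 and 9.59 to 11.14, 11.35 and 11.24 (log2 1.61, SE 0.16, adjusted p = 3.1e-05). Without AL replicate 3 complement had 1 call, and cytokines had 2 calls without background correction and 0 on the deposited log2 values.

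**Figure D2:**
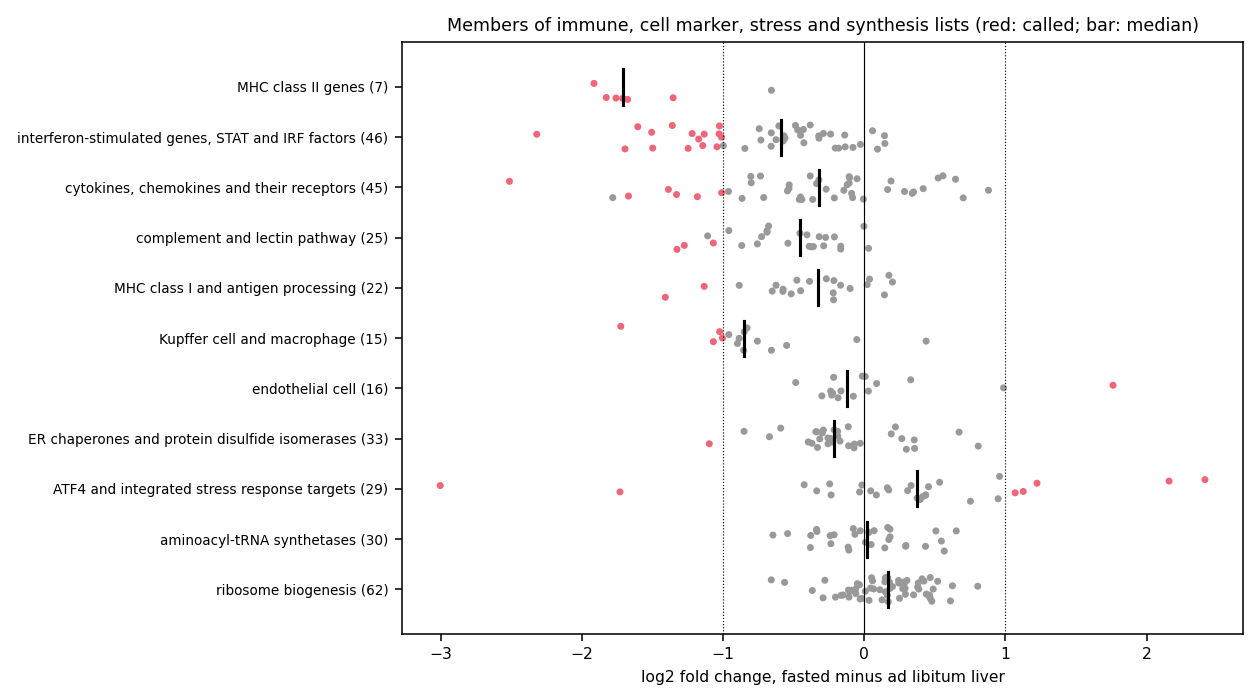
Log2 fold change of every tested member of 11 gene lists, fasted minus ad libitum liver (n = 3 arrays each); red points were called, black bars are list medians, dotted lines mark a 2-fold change and the number tested is in brackets. The MHC class II genes have a median of -1.71, the interferon-stimulated genes one of -0.59, and 0 of the 62 ribosome biogenesis genes were called.

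Among 25 inhibitors and growth arrest genes, 5 rose and 2 fell, and among 14 cyclins, kinases and E2F factors of the G1/S step, 3 fell and 0 rose. The arrest list had 3 rises and 1 fall with all 16 liver arrays, and 2 and 0 on the deposited log2 values. Cdkn1a, which encodes the cyclin-dependent kinase inhibitor p21, was not detected on any AL array (5.22, 5.50 and 5.64) and read 9.40, 9.68 and 10.06 on the fasted arrays. On this probe it was at least 13.9-fold higher in fasted liver (adjusted p = 1.0e-04), and its other 2 detected probes were higher by 2.67 and 1.22 log2 units. Trp53inp1, a stress-induced partner of p53, rose from 10.19, 10.08 and 9.87 to 11.49, 11.02 and 11.44 (log2 1.27, adjusted p = 0.0026). Ccnd1, cyclin D1, fell from 10.50, 10.61 and 10.46 to 9.43, 8.64 and 8.52 (log2 -1.66, SE 0.22, adjusted p = 2.0e-04). Ccnd2, cyclin D2, fell from 9.10, 8.89 and 8.40 to 7.32, 6.79 and 7.21 (log2 -1.69, adjusted p = 8.4e-04). The groups did not overlap in any of these genes. E2f1, the factor that drives S-phase genes, fell with a log2 fold change of -1.24 (adjusted p = 0.0049), but without fasted replicate 3 it was at -0.98 and did not pass.

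The 3 members of the Gadd45 family did not move together. They encode small stress proteins that bind cell cycle kinases and MAP kinase kinases. Gadd45a fell from 9.26, 9.20 and 9.52 to 6.47, 5.67 and 6.82 (8.04-fold, log2 -3.01, SE 0.32, adjusted p = 4.7e-05). Gadd45b was not detected on any AL array (5.28, 5.37 and 5.27) and read 8.31, 8.04 and 8.18 on the fasted arrays, at least 4.78-fold higher (adjusted p = 2.9e-05). Gadd45g rose from 10.59, 9.51 and 11.83 to 13.60, 12.58 and 13.60 (log2 2.62, SE 0.66, adjusted p = 0.019). Its AL arrays were the most spread of the 3 genes, yet the lowest fasted array was above the highest AL array. Replication and mitosis genes had 1 rise and 3 falls among 60, with a median of -0.147. The replication calls were the polymerase subunits Pole4 (log2 1.20, adjusted p = 5.0e-04) and Pold2 (log2 -1.31, adjusted p = 0.0031) and the helicase subunit Mcm6 (log2 -1.09, adjusted p = 0.0041; -0.96 and not called without fasted replicate 1; other probes at -1.03 and -0.29). Pcna, the sliding clamp, was at 0.27 and was not called.

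**Figure D3:**
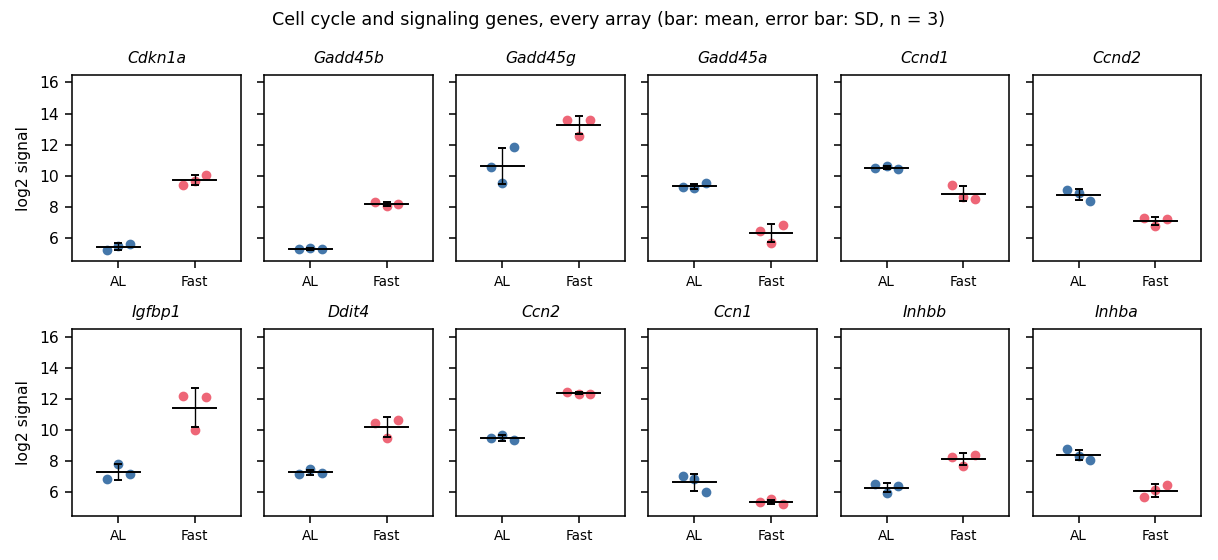
Log2 signal of 12 cell cycle and signaling genes on each of the 3 ad libitum (AL, blue) and 3 fasted (Fast, red) liver arrays, with the mean as a bar and the SD as an error bar. Cdkn1a and Gadd45b lie at background (5.22 to 5.64 and 5.27 to 5.37) in AL liver, and Gadd45a, Ccnd1, Ccnd2 and Inhba are lower on all fasted arrays.

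Transcription factors were mostly near their AL level. Of 26 nuclear receptors 1 was called. It was Nr1i3, the xenobiotic receptor CAR, which rose from 10.33, 10.32 and 10.66 to 11.45, 12.36 and 11.88 (log2 1.46, SE 0.22, adjusted p = 6.9e-04). Cyp2b10, a P450 that CAR is known to induce and which was picked after its values had been seen, rose from 6.26, 6.37 and 6.50 to 9.65, 8.42 and 9.21 (log2 2.72, adjusted p = 5.5e-04). Receptors with known roles in fasting were not called at the transcript level: Ppara was at 0.27, the glucocorticoid receptor Nr3c1 at 0.15 and Hnf4a at 0.40. Of 20 transcriptional coregulators 4 rose and 0 fell. Ppargc1a, the coactivator PGC-1 alpha of gluconeogenesis, rose from 6.81, 6.85 and 6.38 to 8.88, 8.03 and 8.78 (log2 1.89, adjusted p = 4.9e-04). Lpin1, a phosphatidate phosphatase that also acts with it in the nucleus, rose from 9.56, 9.96 and 9.88 to 11.48, 11.19 and 11.93 (log2 1.73, adjusted p = 1.4e-04). Ncoa4, which delivers ferritin to autophagy, rose by 1.30 (adjusted p = 3.3e-04), and the fourth, Lpin2, had a log2 fold change of 1.02 (adjusted p = 0.058) that lost its call without AL replicate 1 or 3 or fasted replicate 2 or 3 (0.81 to 1.00).

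Of 23 basic helix-loop-helix factors 5 fell and 0 rose. Srebf1, the driver of lipogenic genes, read 10.97, 11.14 and 11.04 in AL liver and 6.77, 6.64 and 6.55 in fasted liver, a 21.0-fold fall (adjusted p = 5.9e-08), while Srebf2, its partner for sterol genes, was at -0.31 and was not called. Bhlhe40, a repressor within the circadian clock, fell from 12.90, 13.04 and 12.81 to 10.59, 10.79 and 10.80 (log2 -2.19, SE 0.24, adjusted p = 4.7e-05). Hes6, a Notch-related factor, fell from 12.04, 12.24 and 12.10 to 9.97, 10.59 and 9.73 (log2 -2.03, adjusted p = 1.9e-04). Each of the 3 had groups that stood at least 1 log2 unit apart. Mlxipl, the glucose-sensing factor ChREBP, fell by 1.30 (adjusted p = 0.0076) and the Notch target Hes1 by 1.15 (adjusted p = 0.011). Foxq1, a forkhead factor, fell from 11.52, 10.72 and 11.84 to 8.98, 8.98 and 9.39 (log2 -2.24, SE 0.40, adjusted p = 0.0023). Cebpe, the C/EBP member known from granulocytes, fell from 7.88, 8.46 and 8.36 to 6.64, 6.34 and 5.93 (log2 -1.93, adjusted p = 1.8e-04), though a second probe was at -0.24, and it was the only 1 of 24 bZIP factors that was called. Gata6 rose by 1.13 (adjusted p = 1.2e-04). Immediate early genes (10 tested) and chromatin enzymes (29 tested) had 0 calls in either direction, with Fos at 0.50, Jun at 0.37 and Egr1 at -0.16.

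Clock genes had 1 rise and 2 falls among 15. The falls were Bhlhe40, counted above, and Per3, whose call was lost without AL replicate 2 (-0.76) or 3 (-0.96) or fasted replicate 2 (-0.92). Arntl, the activator BMAL1, read 6.44, 5.65 and 6.19 in AL liver and 7.60, 7.13 and 7.74 in fasted liver (log2 1.40, adjusted p = 0.048). Its call was lost without AL replicate 2 (1.18) or fasted replicate 1 (1.34) or 3 (1.28). Per1 (0.90) and Dbp (-1.18, adjusted p = 0.36) were not called, although the fasted arrays of both lay apart from the AL arrays.

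**Figure D4:**
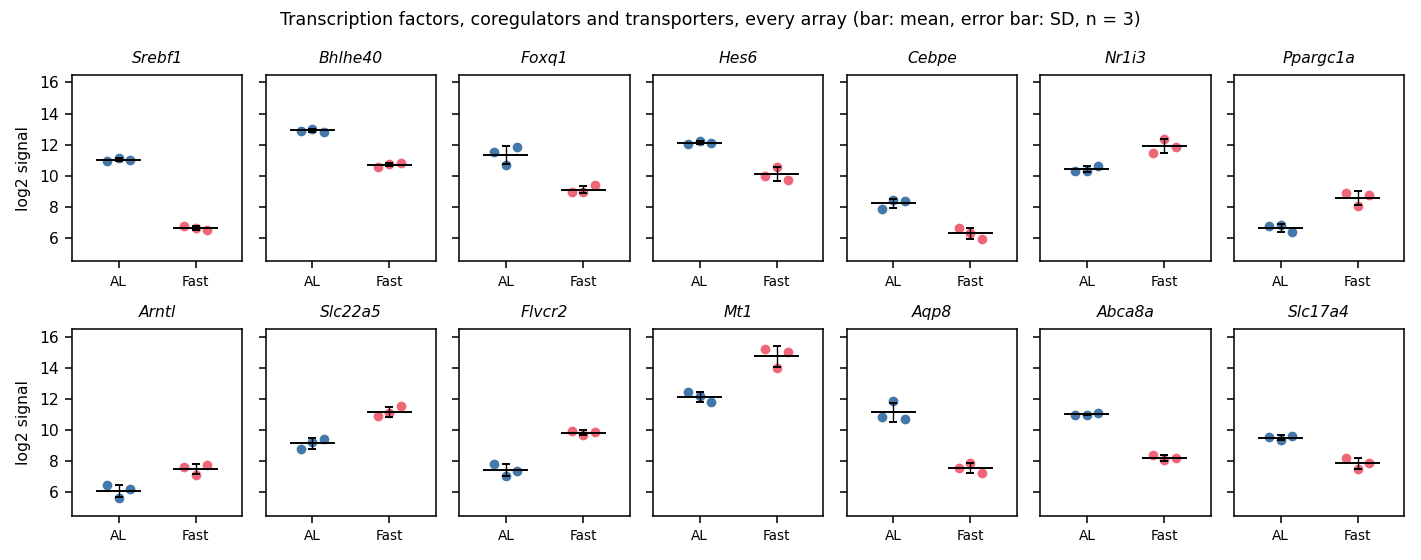
Log2 signal of 8 transcription factors and coregulators (Srebf1 to Arntl) and 6 transporter or metal genes (Slc22a5 to Slc17a4) on each of the 3 ad libitum (AL, blue) and 3 fasted (Fast, red) liver arrays, with the mean as a bar and the SD as an error bar. In all 14 genes every fasted array lies on 1 side of every AL array, as in 480 of all 488 called genes. Srebf1 is 21.0-fold lower and Slc22a5 4.09-fold higher.

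Transporter calls went both ways. The carnitine system, which carries fatty acids towards oxidation, rose at both membranes: Slc22a5, the plasma membrane carnitine transporter OCTN2, went from 8.77, 9.21 and 9.42 to 10.88, 11.09 and 11.52 (log2 2.03, SE 0.27, adjusted p = 2.1e-04), and the mitochondrial carrier Slc25a20 went from 12.56, 12.58 and 12.83 to 13.74, 13.64 and 13.98 (log2 1.13, adjusted p = 1.7e-04). Slc25a20 and Slc25a34 were the 2 of 28 mitochondrial carriers called, and Slc25a34 was at 1.01, with 0.70 and 0.94 and no call without AL replicate 3 and fasted replicate 3. Among amino acid transporters 1 of 18 rose and 2 fell. Slc7a2, which takes up arginine and other cationic amino acids, rose by 1.37 (adjusted p = 0.0016), Slc38a3, a glutamine transporter, fell by 1.13 (adjusted p = 9.2e-05), and the neutral amino acid transporter Slc1a4 fell to below detection on all fasted arrays (adjusted p = 0.0066). The glucose transporter Slc2a2 (-0.51) and the glucose 6-phosphate transporter Slc37a4 (0.88) were not called.

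Calls among carriers of organic ions and vitamins went both ways, with 4 up and 4 down of 36. The fold change was negative for 28 of the 36 and positive for 8, with a median of -0.238. Slco1a4, an organic anion importer, rose by 1.40 (adjusted p = 0.020) and the folate carrier Slc19a1 by 1.16 (adjusted p = 0.0067). Slc17a4, an anion transporter, fell from 9.54, 9.35 and 9.63 to 8.19, 7.50 and 7.89 (log2 -1.65, adjusted p = 2.3e-04), and the organic anion transporter Slc22a7 fell by 1.28 (adjusted p = 0.0065). The bile acid importer Slc10a1 was at -0.18 and was not called. ABC transporters had 0 rises and 4 falls among 28. Abca8a fell from 10.99, 10.97 and 11.06 to 8.38, 8.04 and 8.18 (log2 -2.81, SE 0.26, adjusted p = 1.5e-05), and Abca9, its neighbour in sequence, was not detected on any fasted array, at least 2.79-fold lower (adjusted p = 7.3e-05), though its other 2 probes were at -0.05 and -0.68. Abcb11, the bile salt export pump, fell from 11.91, 11.58 and 11.80 to 10.62, 10.28 and 10.24 (log2 -1.38, adjusted p = 5.2e-04).

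Metal and water handling included large single changes. Mt1, a metallothionein that binds zinc and copper, rose from 12.43, 12.15 and 11.80 to 15.22, 13.96 and 15.01 (log2 2.60, SE 0.36, adjusted p = 2.8e-04). Hamp2, the second mouse hepcidin gene, fell from 13.57, 13.77 and 13.62 to 12.43, 10.90 and 11.48 (log2 -2.05, adjusted p = 0.0030), whereas Hamp, the hepcidin that controls iron export, was not called and was near the upper end of the scale in both groups (0.04). Probes of such close copies may share signal. Slc30a10, a manganese exporter, fell by 1.41 (adjusted p = 0.0080). Aqp8, a water channel, fell from 10.86, 11.84 and 10.69 to 7.59, 7.90 and 7.25 (11.7-fold, log2 -3.55, SE 0.40, adjusted p = 6.2e-05). Outside the lists, and picked after their values had been seen, the magnesium transporter gene Slc41a3 rose from 6.05, 5.86 and 6.34 to 9.21, 8.41 and 9.08 (log2 2.81, adjusted p = 5.8e-04), Flvcr2 from 7.80, 7.03 and 7.38 to 9.93, 9.67 and 9.89 (log2 2.43, adjusted p = 3.0e-05), and Mfsd2a, the importer of lysophosphatidylcholine, from 10.46, 12.02 and 11.46 to 13.48, 13.68 and 13.41 (log2 2.21, adjusted p = 0.0018).

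Among signaling genes, the growth hormone and IGF axis had 2 rises and 4 falls of 22, of which only Igfbp1 and Ghr kept the call whichever array was left out. Igfbp1, a secreted protein that binds IGFs, rose from 6.82, 7.84 and 7.17 to 12.17, 10.01 and 12.13 (17.9-fold, log2 4.16, SE 0.50, adjusted p = 1.2e-04). Fasted replicate 2 was about 2 units below the other fasted arrays and still above all AL arrays. Ghr, the growth hormone receptor, fell from a mean of 13.92 (SD 0.0786) to 12.70 (SD 0.116), with groups that did not overlap (log2 -1.22, adjusted p = 1.3e-04; a second probe was at -0.82). Igfals, which holds IGF in the circulating complex, fell by 1.11 (adjusted p = 9.5e-04; -0.97 and not called without AL replicate 1). Socs2, a feedback inhibitor of the receptor, read 10.80, 10.76 and 10.79 in AL liver and 9.89, 8.51 and 8.56 in fasted liver (log2 -1.80, adjusted p = 0.029; -1.56 and -1.58 and not called without fasted replicates 2 and 3). Cish, another inhibitor of the family, was at -1.53 (adjusted p = 0.068) and lost its call without any 1 of the arrays but AL replicate 2 (-1.60 to -1.11), and Igfbp2 was at 1.04, with 0.88 and 0.97 and no call without AL replicate 2 and fasted replicate 3. Igf1 itself was at -0.39 (adjusted p = 0.11). Of 44 genes of the insulin, mTOR and AMPK pathway 1 was called: Ddit4, an inhibitor of mTORC1, rose from 7.19, 7.48 and 7.21 to 10.43, 9.49 and 10.65 (log2 2.90, SE 0.31, adjusted p = 4.7e-05). The receptor substrates Irs2 (0.83) and Irs1 (-0.48) were not called.

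Some pairs of related ligands were called in opposite directions. The activin subunit gene Inhbb rose from 6.56, 5.95 and 6.40 to 8.29, 7.70 and 8.39 (log2 1.82, SE 0.24, adjusted p = 1.9e-04), while Inhba fell from 8.76, 8.32 and 8.09 to 5.66, 6.14 and 6.49 (log2 -2.29, SE 0.29, adjusted p = 1.6e-04). Ccn2, a matrix-associated growth factor, rose from 9.47, 9.66 and 9.32 to 12.46, 12.32 and 12.31 (log2 2.88, SE 0.24, adjusted p = 5.3e-06), while Ccn1, of the same family, read 7.03, 6.86 and 6.03 in AL liver and was not detected on any fasted array, at least 1.55-fold lower (adjusted p = 0.017), though a second probe was at -0.23. Angptl4, an inhibitor of lipoprotein lipase, rose from 10.78, 11.69 and 11.12 to 13.43, 13.58 and 13.49 (log2 2.30, adjusted p = 1.9e-04), while Angptl8, which acts on the same enzyme in the fed state, fell from 11.47, 11.75 and 11.20 to 8.15, 8.61 and 7.90 (log2 -3.25, SE 0.29, adjusted p = 1.1e-05). In each of these 6 genes the fasted arrays were all on 1 side of the AL arrays. The lists that hold the first 2 pairs had few calls. TGF-beta, BMP and activin genes had 1 rise and 1 fall of 31 (3.23% each). Wnt, Notch and Hippo genes had 1 rise (2.86%) and 2 falls (5.71%) of 35. Over all genes tested the shares were 2.24% for rises and 3.25% for falls.

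Of 26 secreted liver hormones and carriers 4 rose and 5 fell, Angptl4 and Angptl8 among them. Serpina6, corticosteroid-binding globulin, went from 12.01, 11.98 and 12.46 to 9.92, 9.74 and 8.86 (log2 -2.65, SE 0.25, adjusted p = 1.5e-05). Serpina7, thyroxine-binding globulin, went from 8.78, 9.88 and 10.06 to 7.24, 6.72 and 5.39 (log2 -3.13, SE 0.47, adjusted p = 5.8e-04). Serpina12, known as vaspin, fell by 2.27 (adjusted p = 0.0024). Among G protein genes 2 of 50 rose and 2 fell, with Gna14, a G protein alpha subunit, at -2.06 (adjusted p = 1.3e-04). The angiogenic ligand Vegfb fell by 1.41 (adjusted p = 4.9e-04), and the glucagon receptor Gcgr was at 0.22 and was not called.

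Genes of the endoplasmic reticulum (ER) and the secretory route gave almost no calls. Over 5 lists (chaperones, translocation, ER-to-Golgi transport, ER-associated degradation and sensors of unfolded protein) 158 genes were tested, 1 rose and 2 fell, and the median was -0.054. The chaperone BiP, Hspa5, read 9.23, 9.17 and 9.37 in AL liver and 9.23, 9.78 and 9.65 in fasted liver (log2 0.30, SE 0.19, adjusted p = 0.36), so the groups overlapped. The 3 calls were Pdia6, a disulfide isomerase, which fell by 1.10 (adjusted p = 0.0054), and the 2 Insig genes, whose proteins retain the SREBP complex in the ER. Insig1 fell from 11.31, 11.77 and 10.96 to 9.68, 9.61 and 10.11 (log2 -1.55, adjusted p = 9.5e-04), and Insig2 rose from 12.42, 11.91 and 11.91 to 13.47, 13.32 and 13.90 (log2 1.49, adjusted p = 1.6e-04). The lists of protein synthesis genes were as quiet: of 137 genes of ribosome biogenesis, translation and tRNA charging, 0 rose and 1 fell. The fall was in Eef2k, the kinase that inhibits elongation factor 2, which was not detected on any fasted array and was at least 2.47-fold lower (adjusted p = 0.0024). Eif4ebp3, the translation repressor given above as a large rise, was in none of these lists, whose members were chosen with earlier results known. Apoptosis regulators had 0 calls among 36, and Mcl1, which protects mitochondria, was at -0.67.

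Targets of the stress factor ATF4 were called in both directions, 5 up and 2 down of 29. Those that rose are mostly amino acid enzymes that are also used in gluconeogenesis and transsulfuration. Got1, an aspartate aminotransferase, rose from a mean of 9.46 (SD 0.332) to 11.62 (SD 0.536), with groups that did not overlap (log2 2.16, SE 0.28, adjusted p = 1.8e-04). Cth, cystathionine gamma-lyase, rose by 1.22 (adjusted p = 0.0035) and Gpt2, an alanine aminotransferase, by 1.07 (adjusted p = 4.9e-04; picked after its values had been seen; 0.98 and 0.97 and not called without AL replicate 1 and fasted replicate 3). The hormone gene Fgf21 was another of the 5. Asns, asparagine synthetase, was at 1.13 (adjusted p = 0.028), and at 0.89 without fasted replicate 3, where it was not called. The 2 that fell were Gadd45a, given above, and Chac1, which breaks down glutathione (log2 -1.73, adjusted p = 0.026; -1.35 and -1.36 and not called without AL replicate 3 and fasted replicate 2). Trib3, a pseudokinase often read as a marker of this response, was detected on 1 array of each group. Atf4 itself was at -0.35 and Ddit3 at -0.02. The list had 2 rises with all 16 liver arrays, and 3 on the deposited log2 values and without fasted replicate 3.

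Heat shock and oxidative stress genes were called singly. Of 55 heat shock genes 2 were called higher. The fold change was positive for 45 and negative for 10, with a median of 0.261. Fkbp5, a co-chaperone of steroid receptors and a known glucocorticoid target, rose from 8.44, 8.60 and 8.67 to 11.22, 11.14 and 11.75 (log2 2.80, SE 0.26, adjusted p = 1.4e-05), and Hsph1 rose by 1.10 (adjusted p = 0.0029; 0.94 and not called without AL replicate 1), while the mitochondrial chaperones Hspd1 (0.25) and Hspe1 (0.37) were not called. Of 49 genes linked to NRF2 and redox control 4 rose and 3 fell. Osgin1, an oxidative stress-induced growth inhibitor, fell from 12.04, 12.08 and 12.53 to 9.80, 10.40 and 10.10 (log2 -2.12, SE 0.19, adjusted p = 1.4e-05), Glrx, glutaredoxin, rose by 1.18 (adjusted p = 2.0e-04), Cbr1, a carbonyl reductase, rose by 1.18 (adjusted p = 0.0035), and Gstm6, a glutathione transferase, fell by 1.40 (adjusted p = 3.0e-04). Falls in that list numbered 5 without AL replicate 1 or 3 or fasted replicate 2. Of 70 autophagy and lysosome genes 2 rose, Grn, the lysosomal protein progranulin (log2 1.46, adjusted p = 0.0015), and Map1lc3a (log2 1.13, adjusted p = 0.0094; 0.91 and 0.90 and not called without AL replicate 1 and fasted replicate 2).

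Matrix and cytoskeleton genes had 2 rises and 7 falls among 68. Lamb3, a laminin chain, rose from 6.17, 6.27 and 6.80 to 8.84, 8.66 and 8.42 (log2 2.23, SE 0.25, adjusted p = 5.8e-05), and Tuba8, an alpha tubulin, rose by 1.90 (adjusted p = 9.7e-04). Col27a1 fell by 1.81 (adjusted p = 4.9e-04), and Col3a1, a fibrillar collagen of fibroblasts, had a log2 fold change of -1.54 (adjusted p = 0.012), each detected on 1 fasted array. Of 12 markers of stellate cells and fibroblasts tested, Col3a1 was the only 1 called. Their median log2 fold change was -0.406, with 8 negative and 4 positive. The median level of the 13 on the array was 7.29 to 7.36 in AL liver and 6.09 to 6.57 in fasted liver. That level is read from the middle marker, which was Col3a1 or Des on the AL arrays and Rgs5, Col3a1 or Hand2 on the fasted arrays.

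Fasted liver was also compared with liver of calorically restricted mice, which had received reduced food for 2 weeks. The labels give the restriction as 40% and the methods as food equal to 40% of intake, given each afternoon. Since all groups were killed shortly before that hour, restricted mice too were close to a day past their last food supply. The 2 restricted arrays on the same chip were used; the other 2, on another chip, were left out because they carry fat cell transcripts: Adipoq read 15.91 and 15.90 there, against 5.67 and 5.41 on the arrays used, and 9 and 8 of 9 adipocyte markers were detected, against 5 and 3. This comparison shares the fasted arrays with the one above, so its calls do not add to those. Of 8902 genes, 417 (4.68%) were called, 242 higher and 175 lower in fasted than in restricted liver. With all 16 liver arrays as labelled the count was 874.

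Some genes that fell with fasting were near the AL level under restriction. Inhba read 8.22 and 8.58 in restricted liver, against 5.66, 6.14 and 6.49 in fasted liver (log2 difference -2.30, adjusted p = 7.9e-04). Chrna4 read 8.77 and 9.24, with a log2 difference of -3.64 (adjusted p = 0.0031), and Foxq1 read 10.85 and 11.20, with a log2 difference of -1.91 (adjusted p = 0.017; -1.74 and not called without restricted replicate 2). Cyp2c70 lay between the groups: the restricted arrays read 14.37 and 14.31, below all AL arrays, and the log2 difference was -3.24 (adjusted p = 1.2e-07). Socs2 read 11.71 and 12.34, above the AL arrays, and its log2 difference was -3.03 (adjusted p = 0.0042). Among genes that rose, Kiss1 read 6.60 and 6.57 (log2 difference 2.71, adjusted p = 6.1e-04), and Slc41a3 read 5.59 and 6.73 (2.74, adjusted p = 0.0030).

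Other genes moved further under restriction. Ccnd1 read 7.22 and 7.36, below all fasted arrays (log2 difference 1.58, adjusted p = 0.0014), and H2-Ab1 read 8.38 and 8.01 (1.19, adjusted p = 0.0049; 0.96 and 1.00 and not called without fasted replicate 1 and restricted replicate 2). Nrep, picked after its values had been seen, had a log2 fold change of -3.35 from AL to fasted liver and read 6.87 and 7.27 (log2 difference 1.76, adjusted p = 0.0045). Ddit4 read 12.14 and 12.50, above all fasted arrays (log2 difference -2.13, adjusted p = 0.0021), as did Lpin1 at 12.88 and 12.76 (-1.29, adjusted p = 0.0045) and Ppargc1a at 9.35 and 9.95 (-1.09, adjusted p = 0.037; -0.82 and -0.79 and not called without fasted replicate 2 and restricted replicate 2). Cyp2b10 read 11.91 and 11.47 (log2 difference -2.60, adjusted p = 0.0032), although Nr1i3 was lower in restricted than in fasted liver, at 10.94 and 10.79 (1.03, adjusted p = 0.019; 0.80 and 0.96 and not called without the same arrays). Of the heat shock genes 3 were higher in fasted than in restricted liver. Among them were Hsph1 (log2 difference 2.01, adjusted p = 2.1e-04) and Hsp90aa1 (1.30, adjusted p = 0.024; not called without either restricted replicate, at 1.30 both times). For Cdkn1a, at 9.98 and 10.05 in restricted liver, Ccn2, at 12.48 and 12.46, and Treh, at 9.91 and 9.92, no difference passed (log2 differences -0.30, -0.11 and -0.11). Of 2 more genes in the plot of the 3 feeding groups, Bhlhe40 (log2 difference -1.20, adjusted p = 0.012) was at -1.03 and not called without restricted replicate 2, and Gadd45b (1.08, adjusted p = 0.046) was at 0.77 and not called without restricted replicate 1, nor called without fasted replicates 1 (1.01) and 3 (1.08).

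**Figure D5:**
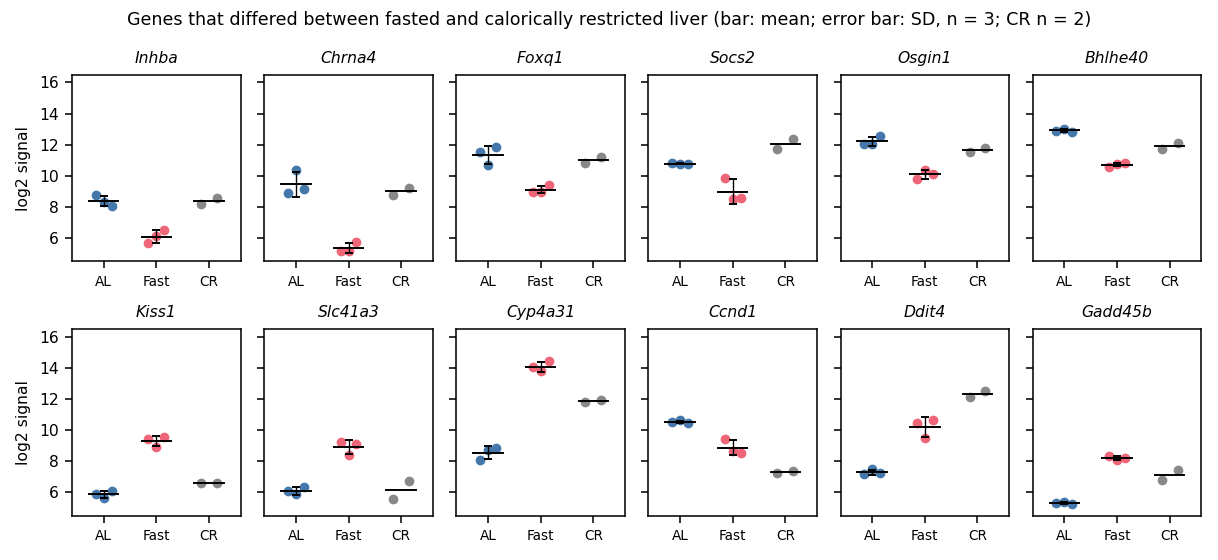
Log2 signal of 12 genes called between fasted and calorically restricted liver on each ad libitum (AL, blue, n = 3), fasted (Fast, red, n = 3) and restricted (CR, grey, n = 2) array, with the mean as a bar and the SD of AL and fasted arrays as an error bar. In the first 6 genes the mean of the restricted arrays lies nearer to AL than to fasted liver, or above AL liver. For Ddit4 the restricted arrays lie at 12.14 and 12.50, above the fasted arrays.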

How the data were processed

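Liver RNA of fasted and ad libitum mice had been hybridized to Illumina MouseRef-8 arrays. The authors deposited signal intensities exported unnormalized from BeadStudio (version not given in the sources used here), each with a detection p-value from that program, and log2 values made with model-based background correction and quantile normalization. From the intensities, the background was removed with limma's nec (limma 3.58.1, R 4.3.3, offset 16), and 14 liver arrays were quantile normalized and log2 transformed: AL 3, fasted 3, restricted 2, wild-type 3 and transgenic 3. Of 25697 probes 23978 carry 1 symbol. Each gene was tested on its brightest probe among those detected (p below 0.05) in 3 or more arrays, and the 5 groups were fitted in limma with empirical Bayes (9 residual degrees of freedom).

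Calls needed an adjusted p (Benjamini-Hochberg) below 0.10 and over 2-fold, the limits of the methods, which used SAM. "At least" folds set undetected arrays at the lowest signal of detected probes. Precision is limited by 3 arrays per group, and p-values measure the spread between arrays of pooled mice. Named genes are the 12 largest rises and falls, chosen anchors, and up to 4 called members per list and direction. The members and the 63 lists were chosen with earlier results of these data known. Limma and SAM were tested on simulated data. Same-numbered arrays did not deviate together (correlations 0.002, 0.016 and -0.023). Alternatives are in the closing section.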

Additional observations from a re-analysis of the deposited data

How the results depend on the processing

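Counts of genes called in fasted liver stayed within 1.5 times the 488 reported (199 up, 289 down) in the fits of the 6 or 8 arrays of the chip, with an offset of 1, median scaling, quantile normalization over 48 arrays, other detection filters, every probe, an adjusted p under 0.05, and SAM (506). With all 16 liver arrays as labelled, which adds 2 restricted arrays carrying fat cell transcripts to the fit, 244 were called (98 up, 146 down). Without background correction 229 were called (94 up, 135 down) and on the deposited log2 values 146 (61 up, 85 down), although 479 and 435 of the 488 still had an adjusted p under 0.10 and the same sign there, so most of these losses were at the 2-fold limit. At any fold 1598 passed (742 up, 856 down), and 2369 had an unadjusted p under 0.05. Median scaling shifted the median of all genes to -0.089 and gave 163 up and 342 down.

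Leaving out 1 array gave 445 to 552 genes, 186 to 218 up and 254 to 340 down. The replicate block gave 486 genes (199 up, 287 down) and changed the call of 3 of the 488; the replicate numbers do not pair the samples. The sign of all 160 named genes that were called was kept in every setting, and 122 kept the call without any 1 of the 6 arrays. The fasted against restricted comparison had 417 genes, 874 with all 16 liver arrays, 311 to 477 without 1 array and 400 with the replicate block. Of 769 tested probes without a symbol, 22 rose and 23 fell. Of 108 called genes with several probes, 2 had another probe of opposite sign (Espn and Rnf125). Signals near background limit the folds of dim genes, and 4 called genes near the upper end of the scale have lower bounds.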
